A study of Mus musculus with 49 samples.

Results

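The transcription factors that hold mouse embryonic stem (mES) cells in the naive state were followed through all 49 RNA-seq libraries: Pou5f1 (Oct4), Sox2, Nanog, Esrrb, Klf2, Klf4, Klf5, Tbx3, Prdm14 and Zfp42 (Rex1). They are 10 of the 20489 genes in the tables and were found by their symbols. All 10 were listed in each of the 4 tables, and all 10 passed the filter on low values in all 19 comparisons.

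Naive pluripotency is the state of the preimplantation epiblast, which mES cells keep in culture with LIF. Oct4 and Sox2 bind DNA together as the core pair, and Nanog, Esrrb, the Krüppel-like factors and Tbx3 act around them in a network whose members activate each other and themselves. Prdm14 represses genes of the later, primed state, and Zfp42 is a widely used marker of the naive state whose own loss mES cells tolerate. In mES cells, activated p53 is known for lowering Nanog and slowing self-renewal as well as for inducing its usual stress targets.

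The libraries came from strain 129S6/SvEvTac mES cells grown on gelatin without feeder cells in medium with serum and LIF. Activated p53 stands for treatment with 1 µM doxorubicin, a DNA-damaging drug, and Trim24 is a chromatin-binding ubiquitin ligase that acts on p53 and was removed at the protein level, through a degron tag on the endogenous protein, with 500 nM dTAG13. Exposure to dTAG13 and loss of Trim24 cannot be told apart in these groups, nor can activity of p53 and other effects of doxorubicin. In the degron line there were 3 libraries at 0 h without either drug, 3 each after 2, 4, 8 and 12 h of doxorubicin alone, and 3 each after the same hours of both drugs. Other experiments held uninduced cells of the degron line with and without dTAG13 (3 libraries each, dTAG13 for 4 h), wild-type cells without drug and with 4 h of doxorubicin (2 each), and a RING-domain experiment at 4 h of doxorubicin with Trim24 present, degraded or ligase-null (4 each). Ligase-null is a line that carries cysteine mutations in the RING domain of the endogenous Trim24 gene, the domain behind its ubiquitin ligase activity, and the labels give these libraries the degron-tag genotype. The lines grew from picked clones, so a difference between 2 lines can belong to the clone. Each of the 4 experiments was its own table, and groups were tested within an experiment only. The labels call the libraries of a group biological replicates without saying that they were separate cultures, so p-values measure the spread between these libraries.

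Library totals over genes ran from 14422098 to 35185256 reads. The labels of the uninduced libraries without dTAG13 disagree: their title says untreated and their treatment field names activated p53. Mdm2, a p53 target, was at 184.4 ± 5.54 CPM (reads scaled to library size; mean ± SD, n = 3) in them, against 180.9 ± 4.65 at 0 h and 966.2 ± 32.0 at 4 h of the time course, and they were taken as uninduced. Trim24 RNA does not check the degron, which acts on the protein (141.5 ± 3.41 CPM with dTAG13 and 120.5 ± 2.52 without at 4 h). The summed level of 8 other embryonic stem cell markers, all detected, lay between 3069 and 3189 CPM at 0 h and between 752.8 and 856.3 CPM at 12 h of activation. All 6 primitive endoderm markers were detected, and their sum was 40.1 to 44.2 CPM at 0 h but 473.2 to 545.9 CPM in the uninduced experiment.

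Several of these factors are known to act on each other's promoters. RefSeq (GRCm38.p6) gave entries of 300 bases, from 250 before to 50 after the start of transcription, for 7 of the 10 genes and 10 starts in all. They were searched on both strands for 7 letters of the octamer that Oct4 binds (ATGCAAA, or TTTGCAT on the other strand), for a SOX motif (ACAATG or CATTGT) and for a KLF motif (CCACCC or GGGTGG). Matches to these are in capitals. The promoters of Nanog, Zfp42 and Sox2 are shown because they hold the octamer letters, and because Nanog and Zfp42 were among the factors that fell furthest.
Nanog, chr6:122707239-122707538, plus strand: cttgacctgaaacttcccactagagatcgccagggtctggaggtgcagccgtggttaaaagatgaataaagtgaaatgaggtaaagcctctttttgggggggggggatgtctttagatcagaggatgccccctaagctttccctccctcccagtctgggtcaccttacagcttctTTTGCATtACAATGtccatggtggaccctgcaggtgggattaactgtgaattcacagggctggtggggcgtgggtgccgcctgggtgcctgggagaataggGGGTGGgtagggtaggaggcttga
Zfp42, chr8:43306960-43307259, minus strand: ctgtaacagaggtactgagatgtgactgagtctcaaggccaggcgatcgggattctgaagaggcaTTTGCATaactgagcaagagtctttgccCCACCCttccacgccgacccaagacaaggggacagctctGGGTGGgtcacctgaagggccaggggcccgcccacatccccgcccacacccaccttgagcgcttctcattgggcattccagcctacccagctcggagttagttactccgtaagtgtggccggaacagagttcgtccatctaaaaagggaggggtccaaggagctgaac
Sox2, chr3:34649745-34650044, plus strand: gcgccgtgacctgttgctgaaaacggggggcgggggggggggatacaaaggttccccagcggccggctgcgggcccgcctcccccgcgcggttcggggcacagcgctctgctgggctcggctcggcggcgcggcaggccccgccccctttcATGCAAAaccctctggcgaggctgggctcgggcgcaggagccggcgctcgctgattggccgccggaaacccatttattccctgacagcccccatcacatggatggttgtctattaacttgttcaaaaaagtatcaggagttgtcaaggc
In Nanog the octamer letters began 75 bases and the SOX letters 67 bases before the start, so that 1 base lies between them, and no 2 of the matches in these 3 promoters overlap. The octamer letters were in 4 of the 10 member entries (both of Nanog, 1 of Zfp42 and 1 of Sox2) and in 4.63% of the 32851 promoters in the reference table. The SOX letters were in 4 of 10 against 12.6%, and the KLF letters in 7 of 10 against 31.5%. The entries of the 2 Nanog starts overlap, so they hold the same octamer, SOX and KLF letters. The decamer that p53 binds was in 0 of the 10 entries and in 8.36% of all promoters, which says nothing of sites elsewhere. Klf5, Tbx3 and Prdm14 had no entry. The Sox2 entry ends at base 34650044, before the first base of the gene in GENCODE M21 (34650405). The 2 annotations thus place the start of Sox2 differently.

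At 0 h the factors covered a wide range of levels. On a scale per length (CPM per kilobase of merged exons, GENCODE M21, n = 3), Zfp42 was highest at 633 ± 16, followed by Pou5f1 at 439 ± 22.2, Nanog at 280 ± 18.0 and Sox2 at 134 ± 12.1. No library of one of these 4 reached a library of its neighbor in this order. Klf2 (76.8 ± 11.4) and Esrrb (69.0 ± 1.98) overlapped, with library ranges of 66.2 to 88.8 and 67.5 to 71.3. Klf4 (28.5 ± 2.51) overlapped with Klf5 (24.7 ± 1.23), and Prdm14 (17.7 ± 1.49) overlapped with Tbx3 (16.9 ± 1.97) at the low end. With coding length in place of exon length, Esrrb passed Sox2 and Klf2, Klf5 passed Klf4, and Tbx3 passed Prdm14. Reads with several matches were placed at 1 of them at random, so the levels of Pou5f1 and Nanog, which have processed copies in the genome, are uncertain.

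After p53 activation the factors fell one after another, and at 12 h 9 of the 10 were called lower. A gene was called where the adjusted p was below 0.01 and the log2 change was 0.75 or more in size. At 2 h 2 of the 10 were called lower (0.677% of all genes tested were), at 4 h 7 (5.8%), at 8 h 8 (18.3%) and at 12 h 9 (22.9%), and none was called higher. The median log2 change of the 10 was −0.37, −1.18, −2.44 and −3.00 in that order, and that of all genes tested stayed between −0.01 and 0.04. The 4 comparisons share the 0 h libraries. In RNA from whole cultures, fewer cells that express a gene and less RNA per cell cannot be told apart. Over the same 12 h the sum of 5 trophoblast markers went from between 5.26 and 5.69 CPM to between 15.7 and 19.7 CPM, and that of 6 fibroblast markers (Lum listed at 0 in all 0 h libraries) from between 1.42 and 2.04 CPM to between 24.3 and 35.4 CPM. Members of these lists did not all move the same way. At 12 h 3 of 10 trophoblast genes were called lower (Cdx2, Eomes and Tfap2c) and 3 higher. Of all genes 22.9% were lower and 30.3% higher, so both counts are near the background. Eomes was at 1.80 ± 0.16 CPM at 12 h against 3.44 ± 0.42 at 0 h. The fibroblast sum at 12 h was mostly Col1a1, a collagen gene, which went from 0.80 ± 0.016 to 27.4 ± 5.54 CPM, while Col1a2 reached 2.01 ± 0.09 CPM and the other 4 markers stayed under 1 CPM. The part of these markers in the changes of the factors was not tested.

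**Figure D1:**
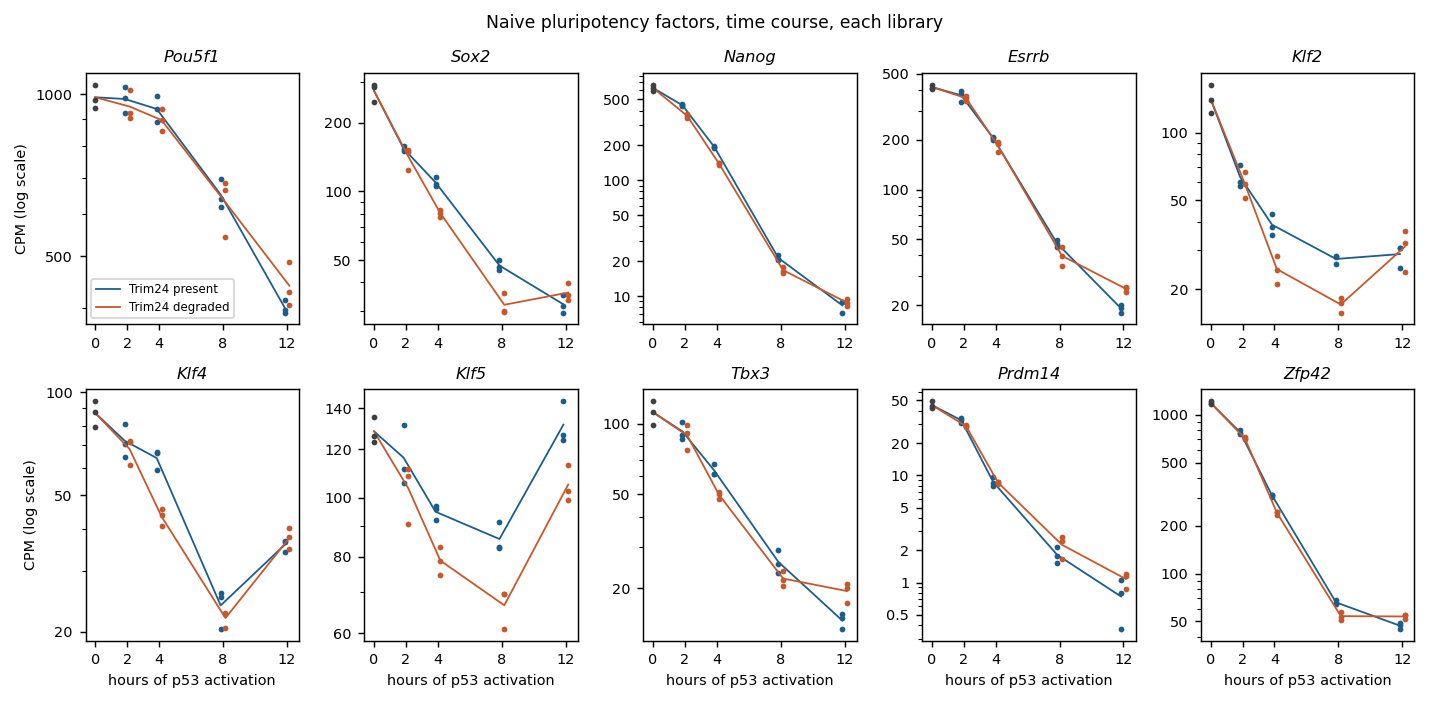
CPM (log scale) of each factor in every library of the time course against hours of p53 activation. Gray points are the 3 libraries at 0 h, blue points have Trim24 present, orange points have Trim24 degraded, and lines join the means. The means of Pou5f1, Nanog, Esrrb, Tbx3, Prdm14 and Zfp42 fall at every step with and without Trim24. That of Sox2 does so with Trim24 present only. The mean of Klf5 is back in the 0 h range at 12 h when Trim24 is present, and its highest library (144 CPM) lies above that range.

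Sox2 and Klf2 were called lower at 2 h. Sox2 (chr3:34650405-34652461, GRCm38), the HMG-box partner of Oct4, was at 285.9, 293.1 and 246.8 CPM at 0 h and at 153.0, 150.8 and 158.1 CPM after 2 h. Klf2 (chr8:72319033-72321656), a Krüppel-like factor that keeps the naive state, was at 139.4, 164.1 and 122.3 CPM at 0 h and at 72.1, 57.7 and 60.5 CPM after 2 h. For both genes every library at 2 h lay below every library at 0 h. The log2 change was −0.83 ± 0.07 (SE; adjusted p = 4.0e-08) for Sox2 and −1.15 ± 0.10 (adjusted p = 7.2e-07) for Klf2. Without the 3rd library at 2 h, Klf2 missed the threshold on p at a log2 change of −1.12, and without the filter on low values neither gene passed it. Zfp42, Nanog and Prdm14 were also lower at 2 h, by 0.62, 0.50 and 0.47 on the log2 scale with adjusted p of 7.0e-08, 3.7e-06 and 0.000253, which is under the minimum size.

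Sox2 went on down to 109.4 ± 5.24 CPM at 4 h, 47.4 ± 2.48 at 8 h and 32.1 ± 2.89 at 12 h, when 11.6% ± 1.05 of the 0 h level was left. Klf2 was at 38.8 ± 4.38 CPM at 4 h and then at 27.3 ± 1.18 and 28.7 ± 3.21 CPM at 8 and 12 h. Its step from 8 to 12 h was 0.07 (95% interval −0.11 to 0.25), so that about 20.2% ± 2.26 of the 0 h level remained.

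Nanog, Prdm14, Zfp42, Esrrb and Tbx3 were called lower from 4 h on. Nanog (chr6:122707489-122714633), the homeobox factor of the naive epiblast, was at 625.8, 588.2 and 668.8 CPM at 0 h and at 191.9, 198.5 and 189.6 CPM at 4 h. At 12 h it was at 8.92, 7.15 and 8.90 CPM. The groups did not overlap at any time, and 30.8% ± 0.73 of the 0 h level was left at 4 h, 3.40% ± 0.17 at 8 h and 1.33% ± 0.16 at 12 h. The log2 change was −1.70 ± 0.04 at 4 h (adjusted p = 2.2e-16) and −6.18 ± 0.08 at 12 h (adjusted p = 8.8e-19).

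Prdm14 (chr1:13113457-13127163), a PR-domain repressor of primed-state genes, was at 44.3, 42.1 and 49.6 CPM at 0 h. It was at 8.45, 9.65 and 7.88 CPM at 4 h and at 1.06, 0.368 and 0.795 CPM at 12 h. The last 3 values rest on 7 to 22 reads per library, so counting error is large there. Its log2 change of −2.34 ± 0.09 at 4 h was the lowest of the 10 at that time (adjusted p = 2.6e-14), and at 12 h it was −5.43 ± 0.20 (adjusted p = 5.0e-11). The prior count of 8 in the deposited values pulls such low levels up, so this fold change is understated.

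Zfp42 (chr8:43295063-43306980), a zinc-finger factor related to YY1, was at 1225, 1180 and 1168 CPM at 0 h, at 311.9, 305.2 and 314.6 CPM at 4 h, and at 48.9, 47.4 and 44.7 CPM at 12 h. Esrrb (chr12:86361117-86521628), an orphan nuclear receptor, was at 412.8, 430.9 and 408.2 CPM at 0 h, at 209.4, 203.7 and 200.8 CPM at 4 h, and at 20.2, 18.0 and 19.3 CPM at 12 h. Both had separate groups at 2, 4, 8 and 12 h, and 3.95% ± 0.18 of Zfp42 and 4.59% ± 0.26 of Esrrb were left at 12 h. The log2 change of Esrrb was −0.17 at 2 h (95% interval −0.30 to −0.04, adjusted p = 0.0623) and −1.03 ± 0.04 at 4 h (adjusted p = 3.4e-14). Tbx3 (chr5:119670669-119684724), a T-box factor, went from 111.7 ± 13.1 CPM at 0 h to 63.0 ± 3.54 at 4 h and 14.6 ± 1.06 at 12 h. Its call at 4 h (log2 change −0.82 ± 0.07, adjusted p = 6.2e-08) was close to the minimum size and was lost without the 2nd library at 0 h (−0.73) and with quantile normalization (−0.72).

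Pou5f1 (chr17:35506018-35510772), the POU factor at the center of the network, was called lower at 12 h alone. It was at 975.6, 1042 and 944.0 CPM at 0 h and at 991.7, 886.3 and 939.1 CPM at 4 h, and these groups overlapped. The 95% interval of its log2 change at 4 h was −0.16 to 0.02 (adjusted p = 0.155). At 8 h it was at 639.6, 618.4 and 694.8 CPM, a change of −0.60 ± 0.06 with no overlap that stayed under the minimum size, and at 12 h at 414.6, 398.1 and 392.3 CPM. The change at 12 h was −1.30 ± 0.06 (adjusted p = 6.0e-13), with 40.7% ± 1.17 of the 0 h level left, and with quantile normalization it was −0.68 and no longer called.

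**Figure D2:**
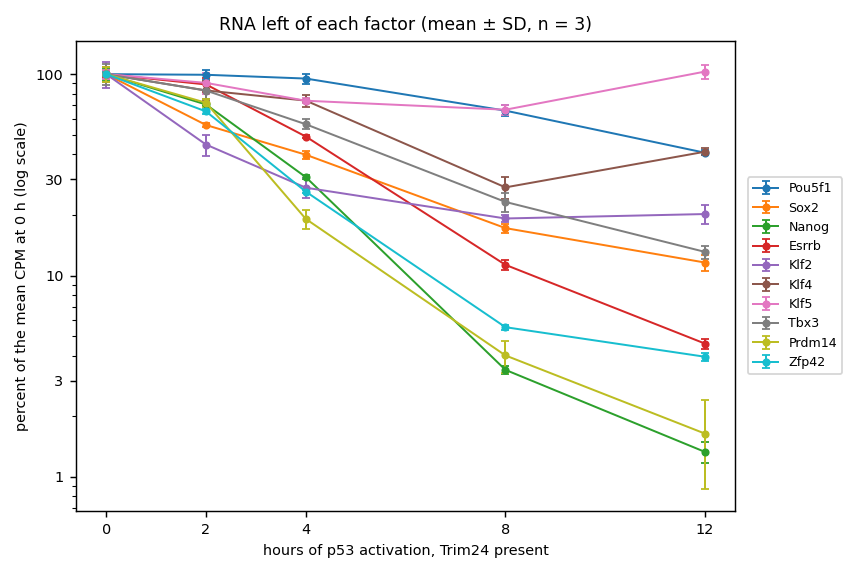
Percent of the mean CPM at 0 h (log scale, mean ± SD, n = 3) against hours of p53 activation with Trim24 present, 1 line per factor. At 4 h Pou5f1 is at 95.1% and Prdm14 at 19.1%, and at 12 h the lines reach from 1.33% (Nanog) to 103% (Klf5).

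Klf4 and Klf5 had their lowest levels at 8 h. Klf4 (chr4:55527143-55532466), a reprogramming factor, was at 87.5, 94.5 and 79.2 CPM at 0 h, at 25.2, 20.4 and 26.0 CPM at 8 h and at 34.2, 36.8 and 36.6 CPM at 12 h. It was called lower at 8 h (−1.86 ± 0.08) and at 12 h (−1.27 ± 0.07, adjusted p = 1.8e-11). Klf5 (chr14:99298691-99315036), a relative that also works in the trophectoderm, was at 126.3, 135.5 and 123.3 CPM at 0 h and at 91.1, 82.9 and 82.7 CPM at 8 h. At 12 h Klf5 was at 124.2, 126.7 and 144.0 CPM, so all 3 libraries lay above those of 8 h and overlapped with those of 0 h. It was never called, and its log2 change was −0.44 ± 0.05 at 4 h (adjusted p = 2.3e-07), −0.58 ± 0.07 at 8 h and 0.03 (95% interval −0.11 to 0.18) at 12 h. The scaling moves the value at 12 h, to 0.34 with quantile normalization (limma, adjusted p = 0.000391) and −0.18 with median centring (adjusted p = 0.0172). Both lie under the minimum size and point in opposite directions. Median centring moved the median change of all genes from 0.02 to −0.19 at 8 h and turned 3016 lower and 4452 higher calls into 4277 and 3622. Under it Pou5f1 (−0.81) and Klf5 (−0.79) were called lower at 8 h as well.

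Steps between times do not use the 0 h libraries, but neighboring steps share a group. From 2 to 4 h Nanog, Esrrb, Prdm14 and Zfp42 were called lower, 4 of the 10 against 2.11% of all genes. From 4 to 8 h 7 were called (7.7% of all genes), all but Pou5f1, Klf2 and Klf5, and the change reached −3.16 ± 0.07 for Nanog. With quantile normalization Esrrb lost its call in the step from 2 to 4 h (−0.75). Klf5 from 4 to 8 h was at −0.15, or 0.04 with quantile normalization. From 8 to 12 h Nanog (−1.33 ± 0.11), Esrrb (−1.29 ± 0.09), Prdm14 (−1.03 ± 0.21) and Tbx3 (−0.81 ± 0.10) were called, 4 of 10 against 2.24%. Tbx3 lost that call without the 1st library at 8 h (−0.73) or at 12 h (−0.75). Prdm14 lost it without trend and robust weights in the test. In the same step Klf4 (0.59 ± 0.09) and Klf5 (0.62 ± 0.08) were higher at adjusted p of 1.5e-09 and 6.6e-14, under the minimum size. Without a minimum size 16.8% of all genes were higher in this step, so 2 of 10 is near the background.

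Wild-type cells, with 2 libraries in each group, put the 4 h question to untagged cells. Here, as in the steps after 4 h and in Trim24 loss at 8 h, limma pooled the spread fully over genes, so these p-values rest on the pooled spread. There Sox2, Nanog, Klf2, Tbx3, Prdm14 and Zfp42 were called lower, 6 of the 10 against 2.27% of all genes. Nanog was at 640.6 and 600.1 CPM without drug and at 353.1 and 331.5 CPM after 4 h, a change of −0.86 ± 0.09. Prdm14 was at 37.5 and 39.1 CPM without drug and at 17.2 and 15.0 CPM after 4 h, a change of −1.24 ± 0.10. Zfp42 was at 979.7 and 978.2 CPM without drug and at 436.4 and 418.7 CPM after 4 h, a change of −1.20 ± 0.09. In all 3 genes the groups were apart, but with 2 libraries in each group this was so for all 10 factors. The share of all genes with groups apart was not counted. The changes of Nanog, Prdm14 and Zfp42 in the degron line at 4 h were −1.70, −2.34 and −1.94. Sox2 was at −1.25 in wild-type cells and −1.33 in the degron line, Klf4 at −0.43 in both and Tbx3 at −0.82 in both. The difference between the experiments was not tested, and line, experiment and tag cannot be told apart. Pou5f1 was at −0.14 (95% interval −0.32 to 0.04). With quantile normalization Nanog (−0.73) and Tbx3 (−0.73) were no longer called, and without the 1st activated library Tbx3 was not.

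**Figure D3:**
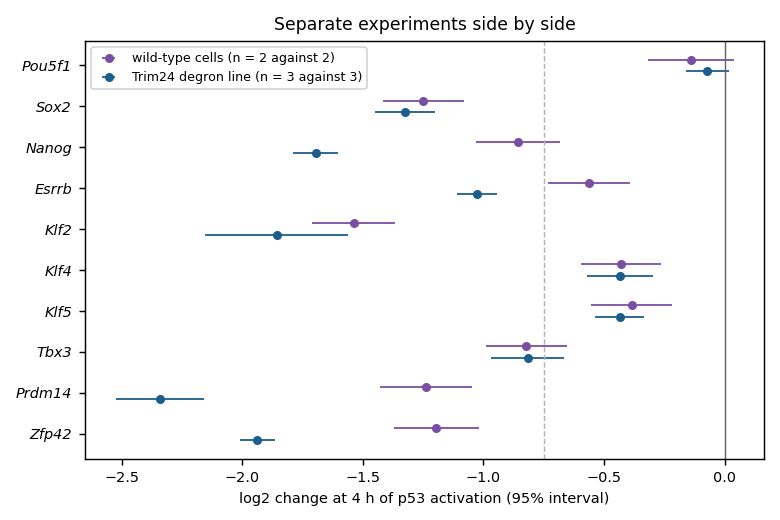
Log2 change at 4 h of p53 activation with its 95% interval, in wild-type cells (purple) and in the Trim24 degron line with Trim24 present (blue), from separate experiments. The dashed line marks the minimum size of a call. The intervals do not overlap for Nanog, Esrrb, Prdm14 and Zfp42 and overlap for the other 6.

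Loss of Trim24 during p53 activation changed the factors by less than the minimum size of a call. None of the 10 was called at 2, 4, 8 or 12 h by the rule above, under which 0.149% of all genes were called lower at 4 h. Without a minimum size, a rule chosen after seeing the data, 7 of the 10 were lower at 4 h at an adjusted p under 0.01, against 2.81% of all genes: Sox2, Nanog, Klf2, Klf4, Klf5, Tbx3 and Zfp42. Their log2 differences ran from −0.27 (Klf5) to −0.66 (Klf2), and the median of all 10 was −0.35 against 0.00 for all genes tested. The activated libraries with Trim24 are the control here and the treated group in the comparisons with 0 h.

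Nanog was at 191.9, 198.5 and 189.6 CPM with Trim24 and at 140.5, 140.1 and 134.4 CPM without it at 4 h. The groups were apart and the log2 difference was −0.48 ± 0.05 (adjusted p = 1.0e-07). Klf4 was at 66.9, 59.3 and 66.7 CPM with Trim24 and at 45.7, 40.6 and 44.0 CPM without it, a difference of −0.56 ± 0.07 (adjusted p = 1.2e-06). Klf2 was at 43.5, 34.8 and 38.1 CPM with Trim24 and at 28.1, 21.2 and 24.4 CPM without it, a difference of −0.66 ± 0.09 (adjusted p = 4.3e-05). Klf2 passed the full rule when the 1st library of the degraded group was left out (−0.76). Pou5f1 (95% interval −0.16 to 0.03) and Prdm14 (−0.23 to 0.21) had overlapping groups. How the spread is modeled matters for the count: with limma's moderation run without a trend and without robust weights 1 of the 10 was lower at 4 h in place of 7, and with no filter 4 were.

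At the other times the counts were smaller. At 2 h Nanog alone was lower, at 374.6, 360.9 and 342.4 CPM against 433.4, 453.2 and 444.6 CPM (−0.31 ± 0.06, adjusted p = 0.00883), 1 of 10 against 0.115% of all genes. This was not so under 5 of the 9 other settings, among them median centring and no filter, nor in 5 of the 6 fits that leave out 1 library. At 8 h Sox2 (−0.57 ± 0.09), Klf2 (−0.67 ± 0.10) and Klf5 (−0.36 ± 0.09) were lower, 3 of 10 against 4.13%. At 12 h Klf5 was lower (−0.32 ± 0.07, adjusted p = 0.00108), 1 of 10 against 11.5% of all genes. Esrrb (0.39 ± 0.09, adjusted p = 0.00116) and Tbx3 (0.40 ± 0.10, adjusted p = 0.00259) were higher, 2 of 10 against 8.47%. Without trend and robust weights no member passed at 8 or 12 h.

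**Figure D4:**
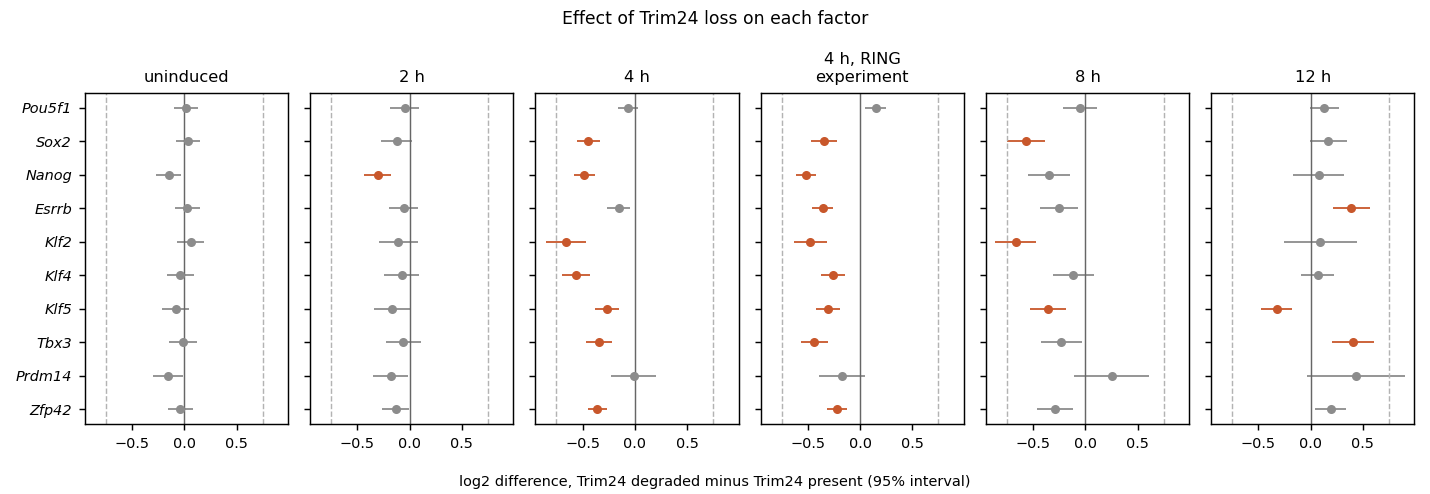
Log2 difference of each factor, Trim24 degraded minus Trim24 present, with its 95% interval, in uninduced cells, at 2, 4, 8 and 12 h of p53 activation and in the RING-domain experiment at 4 h. Orange marks an adjusted p under 0.01 and dashed lines the minimum size of 0.75. Most points lie left of 0 at 4 h in both experiments and right of 0 at 12 h.

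The effect of Trim24 loss differed between 12 h and 4 h for 6 of the 10 factors. At 12 h Esrrb was at 20.2, 18.0 and 19.3 CPM with Trim24 and at 24.1, 25.6 and 25.8 CPM without it, and Tbx3 was at 13.4, 15.5 and 14.9 CPM with it and at 20.04, 20.9 and 17.4 CPM without it. Tested as a difference of differences, 6 of the 10 were higher at 12 h than at 4 h at an adjusted p under 0.01, against 5.31% of all genes. They were Tbx3 (0.74 ± 0.11, adjusted p = 3.4e-05), Klf4 (0.63 ± 0.10), Sox2 (0.61 ± 0.10), Nanog (0.56 ± 0.11), Zfp42 (0.55 ± 0.08) and Esrrb (0.54 ± 0.09). Klf2 had the highest estimate, 0.75 ± 0.22, with an adjusted p of 0.0291, and Klf5 had −0.06 (95% interval −0.24 to 0.13). All of these lay under the minimum size of 0.75, Klf2 at 0.747. Tbx3 passed it with voom (0.76) and without any 1 of 6 libraries (0.76 to 0.82), and Klf2 passed it without the 3rd library of the degraded group at 12 h (0.92). Without trend and robust weights 5 of the 10 were higher at an adjusted p under 0.01. Between 2 h and 4 h, and between 8 h and 4 h, no member passed an adjusted p of 0.01, and at an unadjusted p under 0.05 there were 6 (6.34% of all genes were) and 1 (3.12%), all higher than at 4 h (limma). At 12 h all 6 markers of the primitive endoderm were detected, and their sum was 34.8 to 39.3 CPM without Trim24 and 23.8 to 26.2 CPM with it. The sum of 5 neuroectoderm markers was 11.6 to 12.8 CPM without it and 6.70 to 7.47 CPM with it. Of these 5 neuroectoderm markers, 4 averaged under 1 CPM in both groups, so their sum was mostly the remaining marker. The sum of 5 trophoblast markers was 8.89 to 10.1 CPM without it and 15.7 to 19.7 CPM with it. But of the 9 trophoblast genes tested Hand1 was called lower and Eomes higher (3.76 ± 0.60 against 1.80 ± 0.16 CPM). The median difference of the 9 was −0.02. Of all 16774 genes tested in this comparison, 237 were called lower and 453 higher. The part of these markers in the values of the factors was not tested.

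In uninduced cells no member was called or had an adjusted p under 0.01 (limma), and at an unadjusted p under 0.05 Nanog and Prdm14 were lower, 2 of 10 against 3.37% of all genes. Nanog was at 333.2, 364.9 and 344.9 CPM with Trim24 and at 304.9, 308.6 and 326.3 CPM without it, a difference of −0.15 (95% interval −0.27 to −0.03, adjusted p = 0.442). Prdm14 was at 34.7, 34.1 and 36.4 CPM with Trim24 and at 31.5, 30.5 and 32.1 CPM without it, a difference of −0.16 (95% interval −0.30 to −0.02, adjusted p = 0.569). The groups of both genes were apart, but the share of all genes with groups apart was not counted. The other 8 differences lay between −0.08 and 0.06. Levels in these cells were not those of the 0 h libraries: with Trim24, Nanog was at 347.7 ± 16 CPM against 627.6 ± 40.3, Esrrb at 227.6 ± 4.43 against 417.3 ± 12.0, and Klf4 at 104.5 ± 3.5 against 87.1 ± 7.67. This sets levels side by side across separately normalized tables and was not tested. The primitive endoderm markers also differed between these experiments, with the sums given above, and their part was not tested.

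The RING-domain experiment repeated the 4 h comparison with 4 libraries in each group. Its libraries held 16669410 to 21072810 reads with Trim24 and 24492233 to 33893100 without it, and the part of this difference in depth was not tested. No member was called by the full rule (0.135% of all genes were called lower), and by p alone (adjusted p below 0.01) 8 of the 10 were lower, against 3.73% of all genes. Nanog was at 160.4, 168.4, 163.4 and 158.2 CPM with Trim24 and at 116.6, 114.6, 108.4 and 112.8 CPM without it, a difference of −0.52 ± 0.05 (adjusted p = 1.0e-10). Tbx3 was at 60.4, 61.9, 75.4 and 64.4 CPM with it and at 43.0, 51.2, 48.0 and 50.8 CPM without it, a difference of −0.44 ± 0.07 (adjusted p = 5.9e-06). Esrrb was at 220.1, 216.0, 205.8 and 203.6 CPM with it and at 158.7, 183.4, 156.3 and 162.5 CPM without it, a difference of −0.36 ± 0.05 (adjusted p = 1.6e-06). All 3 had groups that were apart, but the share of all genes with groups apart was not counted. The other 5 were Klf2 (−0.48), Sox2 (−0.35), Klf5 (−0.31), Klf4 (−0.26) and Zfp42 (−0.22). Prdm14 (−0.17, adjusted p = 0.285) and Pou5f1 (0.15, adjusted p = 0.0239) overlapped between groups. Without trend and robust weights 1 of the 10 was lower in this experiment.

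**Figure D5:**
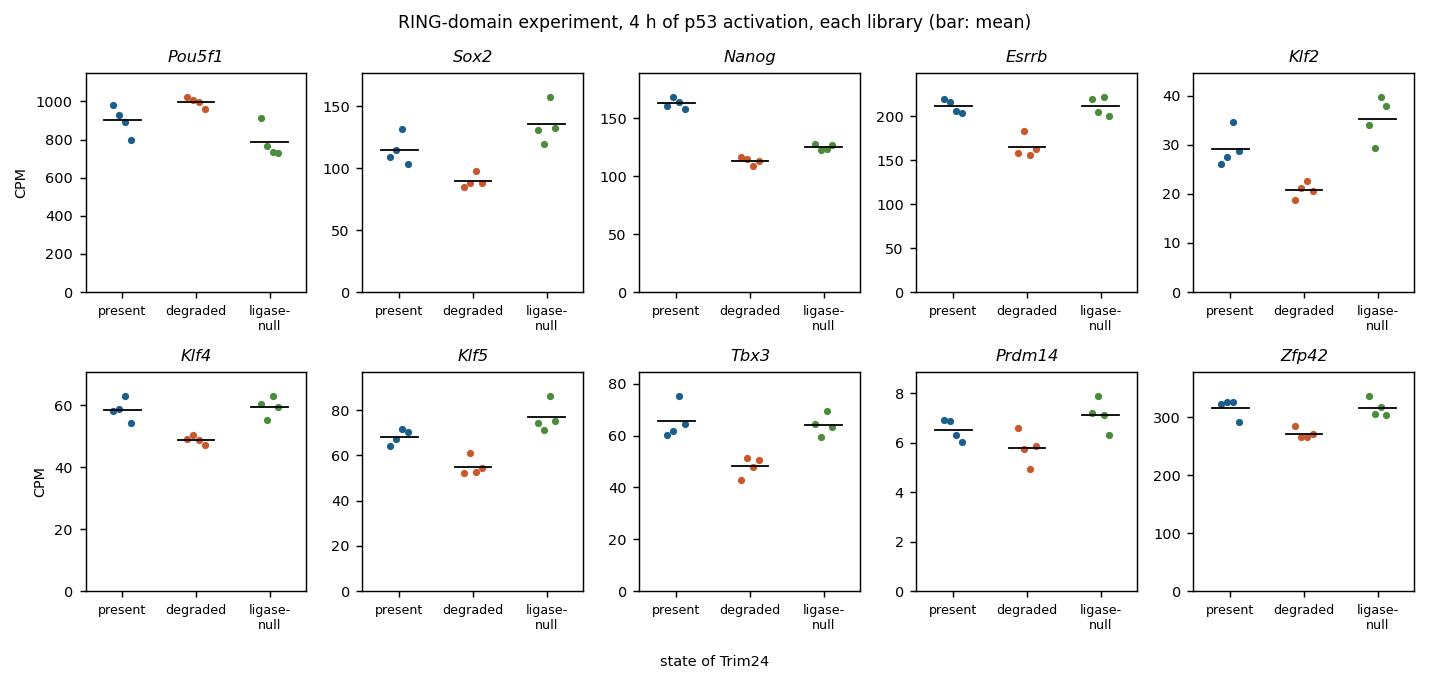
CPM of each factor in the 12 libraries of the RING-domain experiment (4 h of p53 activation; bars are means, n = 4), with Trim24 present, degraded or ligase-null. In Nanog the ligase-null libraries (122.5 to 127.2 CPM) sit between the other groups, and in Esrrb and Zfp42 they overlap with Trim24 present.

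In the ligase-null line no member was called by the full rule against cells with or without Trim24, and the counts here are by p alone (adjusted p below 0.01). Against cells with Trim24, Nanog was lower, at 127.2, 122.5, 123.1 and 126.5 CPM (−0.38 ± 0.05, adjusted p = 5.6e-07), 1 of 10 against 15.6% of all genes, which is not above the background. With quantile normalization or median centring 2 of the 10 were lower by p alone. The 95% interval of the difference was −0.11 to 0.11 for Esrrb, −0.11 to 0.11 for Zfp42, −0.10 to 0.16 for Klf4 and −0.16 to 0.11 for Tbx3. Sox2 (0.24), Klf2 (0.27) and Klf5 (0.17) had estimates above 0 with adjusted p of 0.0164, 0.0174 and 0.0381. Against cells without Trim24, 7 of 10 were higher at an adjusted p under 0.01 (12.9% of all genes were), and Pou5f1 was lower (−0.35 ± 0.06, adjusted p = 1.3e-05), 1 of 10 against 23.3% of all genes, also not above it. The highest was Klf2, at 34.1, 29.4, 39.8 and 37.8 CPM against 18.7, 21.2, 22.6 and 20.7 CPM (0.75 ± 0.08, adjusted p = 6.7e-09), which lay just under the minimum size and passed it with voom (0.76), median centring (0.77) or quantile normalization (0.80). The other 6 were Sox2 (0.59), Klf5 (0.48), Tbx3 (0.41), Esrrb (0.36), Klf4 (0.28) and Zfp42 (0.22). These comparisons share the ligase-null libraries. The line is a separate clone, and its 6 primitive endoderm markers summed to 72.4 to 79.7 CPM, against 10.2 to 12.9 CPM with Trim24 and 14.7 to 16.9 CPM without it. Their part in these values was not tested.

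Further genes of the naive state were also called lower. Of 20 further naive and ES cell genes, all tested, 1 was called lower at 2 h (0.677% of all genes were) and 9 at 4 h (5.8%). At 8 h 19 were called lower (18.3%) and at 12 h 18 (22.9%), and none was called higher. At 4 h Gbx2, a LIF-STAT3 target, was lowest (−1.80 ± 0.08), followed by Nr5a2 (−1.73 ± 0.05), a nuclear receptor that can stand in for Oct4 in reprogramming. Of 13 genes of the LIF-STAT3 and BMP-ID pathways, which feed the network from outside the cell, 7 were called lower and 2 higher at 4 h, when 12.9% of all genes were higher, so the 2 are near the background. The 3 with the largest changes were Bmp4 (−3.43 ± 0.08), a ligand, Id3 (−2.27 ± 0.08), its target, and Pim1 (−2.16 ± 0.08), a STAT3 target. Loss of Trim24 at 4 h called 0 of the 20, and 1 of the 13, Id1, was called lower (0.149% of all genes were).

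Genes of the formative and primed states were mostly lower too. Of 14 formative and primed genes tested at 4 h, 7 were called lower and none higher, led by Foxd3 (−3.45 ± 0.14), Otx2 (−2.76 ± 0.14) and Zic2 (−2.34 ± 0.15), which are regulators of the exit from the naive state or of the primed epiblast. At 12 h 10 of 13 were lower and 2 higher, when 22.9% of all genes were lower and 30.3% higher. Of 13 partners and coregulators of the core factors, 2 were called lower at 4 h, Sall1 (−2.09 ± 0.05) and Kdm4c (−0.86 ± 0.05), and 9 at 12 h. Of 14 other KLF genes, 7 were called lower at 4 h and 1 higher (5.8% and 12.9% of all genes), with Klf6 (−1.74 ± 0.08) and Klf15 (−1.58 ± 0.18) lowest and Klf14 (1.71 ± 0.22) higher.

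Of the markers of other lineages some were called lower and some higher, and at 4 h 5.8% of all genes were lower and 12.9% higher. At that time 5 of 10 primitive endoderm genes were called lower and 1 higher, 1 of 10 trophoblast genes lower, 2 of 6 mesoderm genes lower and 1 higher, 1 of 4 neuroectoderm genes lower and 1 higher, and 2 of 4 fibroblast genes higher. The 1 of 10 trophoblast and 1 of 10 primitive endoderm genes are near these shares. Sox17 (−1.86 ± 0.16), Pax6 (−2.22 ± 0.17), Eomes (−0.96 ± 0.17), Mesp1 (2.10 ± 0.20) and Col1a1 (1.76 ± 0.19) moved furthest in their lists. The median change of the lists at 12 h was −2.19 for the further naive genes, −2.19 for the primed genes, −1.27 for the LIF-STAT3 and BMP-ID pathways, −1.30 for the core partners, −1.01 for the other KLF genes, −0.74 for primitive endoderm, −0.43 for trophoblast, −0.01 for mesoderm, 0.82 for neuroectoderm, 0.44 for fibroblasts and 2.23 for the p53 targets, beside 0.04 for all genes. All 10 p53 targets on the check list were called higher at 4 h, led by Fas (3.89 ± 0.19), a death receptor.

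The genes whose time pattern was most like each factor were found by the root mean square difference of the mean log2 change from 0 h over the 8 treated groups, among 15772 genes. Nr5a2 was nearest to both Nanog (0.40) and Prdm14 (0.39), and Zfp42 was the second nearest to Prdm14 (0.39), the only one of the 10 among the 2 nearest genes of another. Sall1 was nearest to Zfp42 (0.17), Slc6a15 and Tdgf1 to Esrrb (0.17 and 0.22), Tfap2c to Klf4 (0.17), Trim71 to Tbx3 (0.12), Dusp16 to Klf5 (0.11) and Dctpp1 to Pou5f1 (0.05). Sox2 and Klf2 had replication-dependent histone genes nearest (H2bc3 at 0.22 and H2ac8 at 0.25), whose near-identical copies share reads.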

How the data were processed

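RNA-seq libraries (stranded, total RNA) of mES cells were analyzed from 4 tables, 1 per experiment. Per the paper's methods the authors aligned reads with STAR, placed a read with up to 20 matches at 1 of them at random, counted reads over protein-coding GENCODE genes with featureCounts and left out Gm genes. The deposited values are log2 CPM, made by the authors with edgeR (TMM scaling, prior count of 8). CPM and reads were recovered from them, and 100% of values gave whole reads within 0.01. Depth ran from 14422098 to 35185256 reads, so 1 read is worth at most 0.0586 CPM.

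Groups were compared with limma 3.58.1 (R 4.3.3; eBayes with trend and robust weights) over all genes tested and Benjamini-Hochberg adjustment, with only the compared groups in a fit. Tested genes had a log2 value 0.5 or more over the floor of −1.48 in a number of libraries equal to the size of the smaller group. Named are the 10 members, up to 3 called genes of each list with the largest change at 4 h of activation, the 2 genes nearest to each member, and Trim24, Trp53 and Mdm2 as checks. 1 gene that this rule names is not reported here, and Id1, Lum, Cdx2 and Hand1 were named after their values were seen. The 10 members and the lists (naive genes, LIF-STAT3 and BMP-ID pathway, primed genes, core partners, other KLF genes, primitive endoderm, trophoblast, mesoderm, neuroectoderm, fibroblast and p53 targets) were chosen with earlier results of these data known. The fits were tested on simulated data. Alternatives were voom, quantile normalization, median centring, other filters, a pseudocount of 0.5, no trend or robust weights, other thresholds, the replicate number as a block, all groups in 1 fit, and leaving out each library.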

Additional observations from a re-analysis of the deposited data

Results flagged for a closer look

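In the RING-domain experiment 1 of the 4 libraries with Trim24 stood apart for Zfp42, at 291.8 CPM beside 323.1, 325.8 and 327.1 CPM in the others, by Dixon's test. It was the only one of 30 sets of 4 libraries so tested, and chance gives about 1 in 20. The difference in Zfp42 after Trim24 loss was −0.221 with that library and −0.260 without it.

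By a test of the difference itself, the effect of Trim24 loss differed between 12 h and 4 h of p53 activation for 6 factors. This count is by p alone (adjusted p under 0.01), a rule chosen after seeing the data, and 5.31% of all genes were higher by it. By the full rule no factor was called. The difference was 0.744 for Tbx3, 0.629 for Klf4, 0.613 for Sox2, 0.559 for Nanog, 0.552 for Zfp42 and 0.543 for Esrrb on the log2 scale.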

How the results depend on the processing

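By the full rule, the number of the 10 factors called kept within 1.5 times its value in each comparison under the alternatives other than the looser thresholds, unless named here. At 2 h of activation 0 factors were called lower with no filter. The difference between 12 h and 4 h in Trim24 loss had 1 higher factor with voom (Tbx3), and the ligase-null line against degraded Trim24 had 1 (Klf2) with voom, quantile normalization or median centring, in place of 0. Klf5 in the step from 4 to 8 h went from −0.149 to 0.037 with quantile normalization. Of the 190 pairs of a factor and a comparison, 70 were not called under any setting.

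With p alone (adjusted p below 0.05, then below 0.01, the latter chosen after seeing the data), 7 and 5 factors were lower at 2 h of activation, 8 and 8 in the step from 2 to 4 h, and 7 and 7 lower with 2 and 2 higher in the step from 8 to 12 h. Trim24 loss gave 1 and 1 lower factors at 2 h, then 7 and 7 (4 h) and 5 and 3 (8 h). Its 12 h counts were 1 and 1 lower with 3 and 2 higher. They were 8 and 8 lower in the RING-domain experiment with 1 higher at 0.05, 1 higher at 0.05 for the difference between 8 h and 4 h, and 7 and 6 higher for that between 12 h and 4 h. The ligase-null line had 2 and 1 lower with 3 higher at 0.05 against expressed Trim24, and 1 and 1 lower with 9 and 7 higher against degraded Trim24. The shares of all genes lower were 7.12% and 3.64% at 2 h of activation, 22.3% and 16.2% from 2 to 4 h and 19.7% and 14.6% from 8 to 12 h, with 21.6% and 16.8% higher. For Trim24 loss at 0.05 they were 0.198% at 2 h, 6.2% at 4 h, 7.38% at 8 h and 18% at 12 h with 13.4% higher, 7.02% in the RING-domain experiment with 15.3% higher, and 0.243% and 9.97% higher for the differences of 8 h and of 12 h from 4 h. For the ligase-null line at 0.05 they were 22% lower and 16.1% higher against expressed, and 30.3% lower and 18% higher against degraded Trim24. The counts of 1 and 2 lower factors at 12 h and in the ligase-null line, and of 1 higher in the RING-domain experiment, are not above the background.

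Leaving out 1 library gave 1 to 2 factors lower at 2 h of activation, 0 to 1 lower for Trim24 loss at 4 h, 0 to 2 higher for the difference between 12 h and 4 h, and 0 to 1 higher for ligase-null against degraded Trim24. No comparison had a correlation over 0.1 in every pair of libraries with the same replicate number. With so few libraries this cannot show whether same-numbered libraries were handled together. With the replicate block no count of factors called by the full rule moved, Trim24 loss at 4 h called 36 genes lower in place of 24, and 7 factors were lower there by p alone. At 2 h 0 factors were, in place of 1. No block could be fitted for the ligase-null comparisons, whose groups share 1 number.

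Over all genes, 18 were lower without the filter in place of 105 at 2 h of activation, and 1105 at an adjusted p below 0.05 alone. For Trim24 loss at 4 h 5 were lower without trend and robust weights in place of 24, and 1000 at an adjusted p below 0.05 alone. Lower and higher calls were 915 and 2039 at 4 h of activation but 1366 and 1570 with quantile normalization, 3762 and 4964 at 12 h but 4905 and 4172 with median centring, 1272 and 2747 from 4 to 8 h but 1973 and 2117 with median centring, and 373 and 1315 in wild-type cells but 569 and 897 with quantile normalization. All 10 levels per length at 0 h were higher with coding length. The cause of these shifts was not tested. Depth limits Prdm14 most, which had 7 to 22 reads per library at 12 h.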
